A study of Mus musculus with 11 samples.

Results

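Strong accessible regions far from promoters were examined that had nearly the same mean signal in 4 populations of naive CD4 T cells. They were chosen by the measured values: a peak was taken when the authors' table placed it more than 5 kb from a transcription start site, when all 4 population means were at least 25 rppm (the deposited, depth-scaled reads), and when the highest population mean was below 1.2 times the lowest. Peaks on unplaced contigs were left out. The rule took 1712 peaks, called level distal peaks here, which are 68.0% of the 2518 strong distal peaks, 6.27% of 27292 distal peaks and 3.76% of the 45508 listed. The other 806 strong distal peaks had a ratio of 1.2 or more, and 83 of these reached 1.5. Evenness across populations is therefore how the peaks were picked and not a finding.

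The assay was ATAC-seq, in which a transposase cuts accessible DNA, on 11 libraries of 10000 cells from spleen and lymph nodes of 3 untreated mice. All mice carried the Tg(Nr4a1-EGFP)GY139Gsat transgene, a green reporter of Nr4a1 (Nur77) that T cell receptor signalling switches on, together with the Foxp3tm1Flv allele, a red reporter of Foxp3, on a C57/BL6 background. All cells were CD4+, Foxp3-RFPneg and CD44lo, and none received a T cell receptor stimulus. Population A was Nur77-GFPlo Ly6C+ (n = 2, mice 1 and 3), B Nur77-GFPint Ly6C+ (n = 3), C Nur77-GFPint Ly6Cneg (n = 3) and D Nur77-GFPhi Ly6Cneg (n = 3). Ages are not given in the labels, reporter level and Ly6C change together between A and D, and each value is an average over sorted cells, so the share of cells with an open site and its openness per cell cannot be told apart.

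Distal open sites are mostly enhancers, the stretches of DNA where transcription factors bind to raise transcription of a gene that may lie far away, together with insulator sites bound by CTCF and starts of noncoding or alternative transcripts. In naive T cells, enhancers are kept open by factors of the ETS, RUNX and TCF families, while AP-1 and NFAT open further sites after activation. CpG islands, stretches rich in unmethylated CpG, mark most promoters of widely used genes and are often open in many cell types.

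Some level distal peaks hold the start of a transcript that the authors' distances did not count. Of the 1670 on the chromosomes searched, 115 (6.89%) held a RefSeq start and at least 150 of the 300 bases around it (build GRCm38.p6), 40 of them of a protein-coding gene and 75 of a long noncoding RNA alone. The sequences below are RefSeq start windows, from 250 bases before to 50 after the start, under the 3 strongest such peaks, and each lies whole in its peak. Capitals mark letters searched for on both strands: the ETS core CCGGAA, the RUNX core TGTGGT and the SP1 box GGGGCGG.
Fbrs, chr7:127478708-127479007, plus strand: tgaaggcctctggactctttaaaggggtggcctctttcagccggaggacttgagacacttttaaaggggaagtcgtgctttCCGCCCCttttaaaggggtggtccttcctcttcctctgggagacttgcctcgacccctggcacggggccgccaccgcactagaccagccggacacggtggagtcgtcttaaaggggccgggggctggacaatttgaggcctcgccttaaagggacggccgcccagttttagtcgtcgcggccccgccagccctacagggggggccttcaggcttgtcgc
Gm51814, chr10:19062529-19062828, plus strand: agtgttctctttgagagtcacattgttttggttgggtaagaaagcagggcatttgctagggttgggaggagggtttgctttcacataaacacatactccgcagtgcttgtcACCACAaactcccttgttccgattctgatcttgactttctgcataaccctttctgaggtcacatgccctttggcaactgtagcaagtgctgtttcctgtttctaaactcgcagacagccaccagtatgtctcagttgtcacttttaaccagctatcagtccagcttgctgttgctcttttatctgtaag
Gm2885, chr17:6827967-6828266, minus strand: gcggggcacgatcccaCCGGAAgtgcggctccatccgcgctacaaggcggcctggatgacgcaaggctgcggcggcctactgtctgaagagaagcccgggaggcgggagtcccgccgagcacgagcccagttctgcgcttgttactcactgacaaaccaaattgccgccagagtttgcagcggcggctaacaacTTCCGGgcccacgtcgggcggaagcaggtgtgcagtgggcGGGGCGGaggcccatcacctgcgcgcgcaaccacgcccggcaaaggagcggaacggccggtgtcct
The Fbrs and Gm2885 windows are GC rich, at 62% and 67.7% G or C with 19 and 33 CpG dinucleotides. The Gm51814 window is not, at 45.3% with 3. Gm2885 had 2 ETS matches and 1 SP1 match, Gm51814 had 1 RUNX match and Fbrs 1 SP1 match.

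The peak over the Fbrs start (chr7:127477496-127479334), assigned by the authors to Prr14 at 6.8 kb, stood at 173 and 171 rppm in A, 198, 175 and 166 in B, 184, 164 and 157 in C, and 213, 167 and 149.9 in D (mice in ascending order here and below). Mouse 1 was highest in all 4 populations. The peak over the Gm51814 start (chr10:19061816-19063248), 47.1 kb upstream of Tnfaip3, the gene of the NF-kB inhibitor A20, held 178 and 159 rppm in A, 181, 168 and 155 in B, 201, 153 and 138 in C, and 197, 146 and 134 in D. Mouse 1 was again above mouse 3 in all 4 populations, and mice differed here (limma adjusted p = 0.00842, mouse 3 minus mouse 1 -0.37 on the log2 scale). The peak over the Gm31869 start (chr1:161765790-161767610), 21.8 kb from Fasl, the death ligand of activated T cells, had 128 and 120.3 rppm in A, 123, 118 and 126 in B, 130.5, 114 and 115 in C, and 124, 95.4 and 106 in D. The populations overlap, with the lowest value in D of mouse 2. The peak over the Gm2885 start (chr17:6827242-6829018), 45.4 kb from Ezr, which encodes the membrane linker ezrin, ran from 109 rppm in D to 145 in C. It held 140 and 124 rppm in A and 123, 111 and 109 in D. All D libraries lay below both A libraries there, at a log2 difference of -0.21 (SE 0.12) that was not called (limma adjusted p = 0.368).

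The level distal peaks had a median signal of 41.8 rppm (quartiles 32.9 and 57), from 25.6 to 255, against a median of 7.23 over all distal peaks. Population medians were 41.9 rppm in A, 42.6 in B, 42.2 in C and 40.9 in D. The median ratio of highest to lowest population mean was 1.11, with 716 peaks below 1.1. D held the lowest mean at 750 of the 1712, A at 511, C at 269 and B at 182. The width was 1128.5 bases in the median, close to the 1085.5 of the other strong distal peaks, and the distance to the assigned start was 23251.5 bases in the median, with 146 peaks (8.53%) beyond 100 kb.

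**Figure D1:**
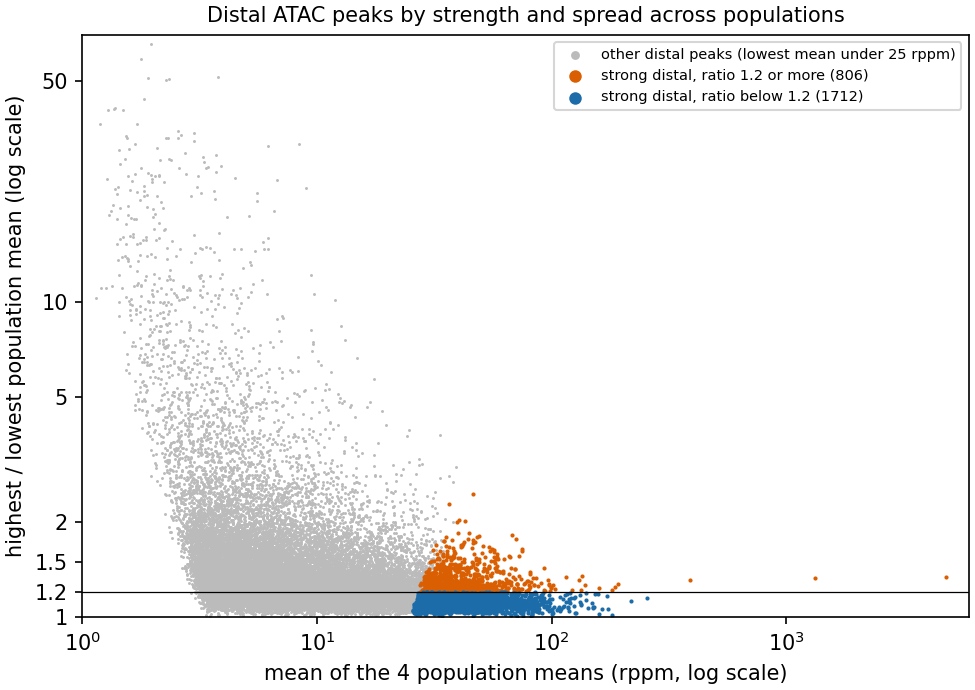
Each point is 1 distal peak, by its mean over the 4 population means (x axis, rppm, log scale) and the highest over the lowest population mean (y axis, log scale). The horizontal line is the limit of 1.2; the 1712 level distal peaks (blue) lie below it and the 806 other strong distal peaks (orange) on or above it, and the grey peaks have at least 1 population mean under 25 rppm.

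Peaks just inside and outside each limit of the rule were as follows. Just inside the ratio limit, a peak near Mir3970 held means of 26.8, 29.3, 29.5 and 32.1 rppm in A to D, and just outside it a peak in an intron of Jak1, a cytokine receptor kinase, held 31.2, 29.9, 28.9 and 26. Just inside the distance limit lay a peak in an intron of Lef1, a TCF family factor, at 5.03 kb with a mean of 53.3 rppm, and just outside it 1 near Lrrc14 at 4.98 kb with 44.5. The floor acts on the lowest population mean. Just inside it, a peak in an intron of Ctnnbl1 had a lowest population mean of 25.01 rppm (mean 26.6). Just outside it, an intergenic peak 16.5 kb from Cpsf6 had 24.95 (mean 25.9).

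Libraries differed in depth. The totals that scale the reads ran from 2597176 in D of mouse 1 to 36859229 in D of mouse 3, so that 25 rppm stood for 65 to 921 reads. Promoter peaks were listed for 7 of 7 CD4 T cell markers (summed signal 214 to 245 rppm per library), 2 of 6 CD8 T and NK markers (22.1 to 34.1 rppm, from Cd8b1 and Gzma) and 2 of 7 myeloid and dendritic markers (9.63 to 19.2 rppm, from Itgam and Cd14). The B cell genes Cd79a and Ms4a1, the myeloid gene Lyz2 and the NK gene Ncr1 had none.

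By limma, 12.4% of all listed peaks (5658) differed between D and A, 3957 higher in D and 1701 lower, and 0 of the level distal peaks did, at a smallest adjusted p of 0.136 and with 21 at an unadjusted p below 0.05. By edgeR and DESeq2 the count was also 0. Any difference among populations was called at 9.64% of listed peaks and at 0 level distal peaks by limma, edgeR and DESeq2, with 0 at an unadjusted limma p below 0.05. These contrasts are the ones the rule selected on, so the counts only describe the selection. The D minus A differences ran from -0.328 to 0.254 in log2(rppm + 1), and their 95% intervals had a median half-width of 0.287. The interval lay within 0.5 on either side of 0 for 1368 peaks and within 1 for 1710.

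Pairing libraries by mouse changes the error and, since A has no library of mouse 2, also the estimate. Some differences then passed the test. With the mouse as a block, limma called 57 of the 1712 between D and A (17 higher in D, 40 lower, sizes 0.23 to 0.475 in log2), against 21.2% of all listed peaks. For any difference among populations it called 8, against 17.5%. Without population D replicate 1, the shallowest library, limma called 13 between D and A with no block, against 13.3% of all listed peaks. The rule used population means without matching mice. Blocked differences can therefore exceed those of the fit without a block, which ran from -0.328 to 0.254 in log2. These counts are a description and not a test of the level distal peaks. Applied to mice 1 and 3 only, the rule took 1535 peaks and kept 1395 (81.5%) of the 1712.

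Evenness chosen in 1 mouse was read in another. The rule applied to mouse 1 alone took 935 distal peaks, and in mouse 3 these had a median ratio of 1.16, with 66.5% below 1.2 (95% Wilson interval 63.4% to 69.5%, counting error over peaks only) and 0.642% at 1.5 or more. The 1587 strong distal peaks of mouse 1 outside its limit had a median of 1.19 in mouse 3, with 52% below 1.2 and 8% at 1.5 or more. Chosen in mouse 3, whose libraries were the deepest, 1470 peaks had a median ratio of 1.23 in mouse 1, with 40.7% below 1.2, against 27.2% of the 946 not chosen. Each single ratio here is between 4 libraries and carries their counting error, which was largest in mouse 1.

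Mice differed at many level distal peaks. A difference among the 3 mice, a comparison that the rule did not use, was called by limma at 19.9% of all listed peaks and at 661 (38.6%) of the level distal peaks. The share was 40.2% of the other strong distal peaks, 31.3% of those with a ratio of 1.5 or more, 32.8% of 7234 strong level peaks within 1 kb of a start site and 16.3% of all distal peaks. Of the 661, 511 were lower in mouse 3 than in mouse 1 and 150 higher. The other strong distal peaks leaned the same way, with 247 of those called lower and 77 higher. Among called promoter peaks of the same kind 1064 were lower and 1308 higher. For the level distal peaks, median-of-ratios scaling gave 584 lower and 105 higher, and quantile normalization 555 and 160. Over all 1712, mouse 3 and mouse 1 differed by 0.163 in log2 in the median regardless of sign, and the signed median was -0.104 for mouse 3 minus mouse 1 and -0.119 for mouse 2 minus mouse 1. At the other strong distal peaks the signed medians were -0.103 and -0.12. Without population C replicate 1 (mouse 1, the shallowest library but one), limma called only 107 of the level distal peaks, against 2.61% of all listed peaks. Depth moved with the mouse, since mouse 3 gave the deepest library of each population, and its part in these differences was not tested.

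**Figure D2:**
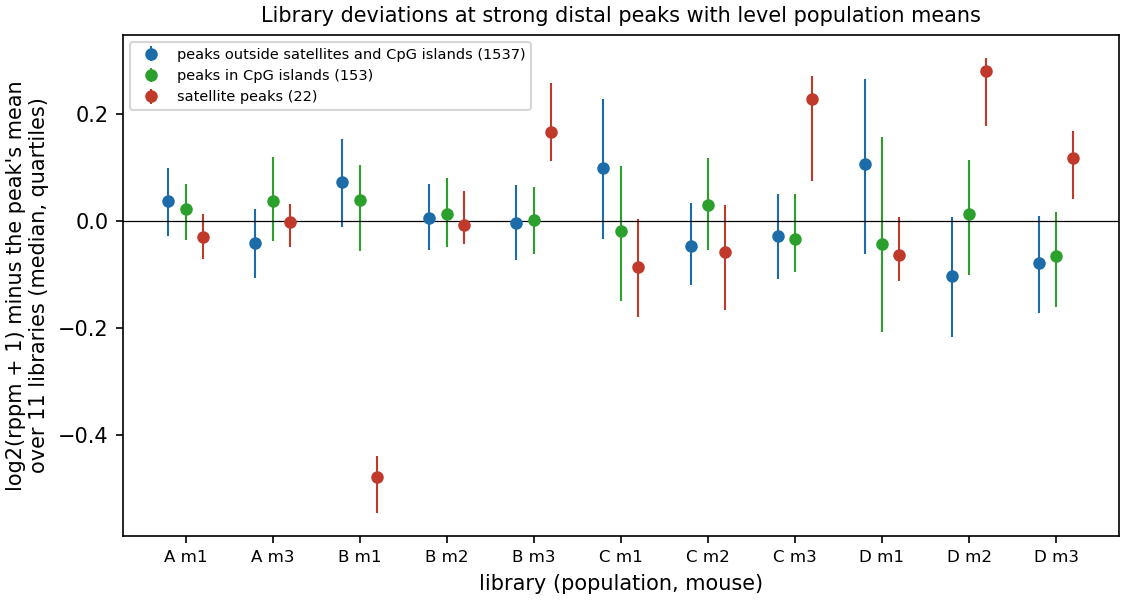
For each library (x axis) the points give the median, and the bars the quartiles, of log2(rppm + 1) minus the same peak's mean over the 11 libraries, for 1537 level distal peaks outside satellites and CpG islands (blue), 153 in CpG islands (green) and 22 in satellites (red). Blue points of mouse 1 lie between 0.037 and 0.106 and those of D in mice 2 and 3 at -0.104 and -0.078, and the satellite peaks are lowest in B of mouse 1, at -0.479.

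The smallest p for a difference among mice was at a peak on the X chromosome at Erdr1, a gene beside the pseudoautosomal boundary that has near-identical copies. This peak (chrX:170016850-170017725, assigned to G530011O06Rik) held 17.5 and 43.8 rppm in A, 12.5, 19.6 and 60.0 in B, 12.0, 20.1 and 66.4 in C, and 12.3, 17.3 and 55.6 in D. Mouse 3 stood above the other mice in every population without overlap (limma adjusted p = 1.08e-06, log2 1.98 against mouse 1), and the population means of this peak were still within a ratio of 1.155. A second peak next to it (chrX:170009731-170010278) was low in mouse 2 instead, at 40.9, 35.1 and 31.7 rppm against 50.2 to 90.1 in the other mice (adjusted p = 0.000219). An rRNA-like repeat in Zc3h7a, near Txndc11 (chr16:11144171-11144374), was highest in mouse 2 in B, C and D, at 135, 159 and 174 rppm. A, which has no library of mouse 2, held 104 and 142 rppm there, against 80.5 and 115 in D of mice 1 and 3. With the mouse as a block this peak was called between D and A (limma adjusted p = 0.0219). Peaks near Actb, the actin gene, and in Ncoa2, a nuclear receptor coactivator, completed the 5 with the smallest p, with Ncoa2 at 23.1 to 26.4 rppm in mouse 3 and 34.3 to 40.2 in the others. How the authors treated reads that fit several places is not stated, and the source of these differences was not tested.

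The single most open level distal peaks were of several kinds. The highest of all was a satellite repeat on chromosome 9 (chr9:3001991-3002421, assigned to Mir101c), at 255 ± 3.46 rppm (SD, n = 2) in A, 239 ± 45.4 (n = 3) in B, 254 ± 6.08 (n = 3) in C and 274 ± 36.3 (n = 3) in D. Of the 22 satellite peaks among the 1712, 21 were of the GSAT_MM repeat within a short stretch there. Their median deviation was -0.479 in B of mouse 1 and 0.281 in D of mouse 2, and 15 of the 22 were called among mice. Satellite DNA is repeated many times in the genome, so these values are uncertain as values of 1 place. Without them 1690 level distal peaks were left, and 654 were called among mice in a fit without satellites.

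A CpG island 10.7 kb from Rn4.5s (chr6:47763035-47764196), a small noncoding RNA gene with repeated copies, followed at 206 ± 4.17 rppm (SD, n = 2) in A, 222 ± 56.6 (n = 3) in B, 207 ± 33.8 (n = 3) in C and 233 ± 9.19 (n = 3) in D. Another CpG island, 65 kb from Zfp958 (chr8:4677212-4679164), a zinc finger gene, held 190.4 and 172 rppm in A, 190.5, 186 and 173 in B, 199, 176 and 164 in C, and 218, 169 and 157 in D, with no other listed peak within 50 kb. An intergenic peak (chr3:115815012-115816915), assigned to A930005H10Rik at 72.1 kb, had 172 and 150.2 rppm in A and 211, 132 and 129.7 in D. On its other side S1pr1, whose receptor lets T cells leave lymph nodes, lies 100 kb away in RefSeq. A peak between Ifnar1 and Ifngr2 (chr16:91532806-91534336), which encode chains of the interferon receptors, had 149.8 and 144 rppm in A and 222, 122 and 131 in D. At both, mouse 1 was highest in each population. A peak 26.1 kb from Dad1 (chr14:54227146-54228456), the gene next to the T cell receptor alpha locus, was picked after its values were seen and had 153 and 134 rppm in A and 175, 132 and 124 in D.

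The most even peak, near Mir147 (chr2:122651879-122653316), had a ratio of 1.01 with 45.5 and 46.5 rppm in A, 54.9, 42.0 and 41.7 in B, 52.8, 42.2 and 44.0 in C, and 57.0, 40.1 and 42.2 in D. Its libraries spanned more than its means, and mice differed (limma adjusted p = 0.0173). A peak 21.2 kb upstream of Dusp6 (chr10:99241291-99242862), which encodes a phosphatase that turns off ERK signalling, had a ratio of 1.016 with 71.3 and 64.4 rppm in A, 62.9, 67.2 and 71.2 in B, 66.9, 60.9 and 72.6 in C, and 74.7, 61.4 and 65.3 in D. All 4 populations overlap there and no difference among mice was called (adjusted p = 0.422). Over all 1712, the highest library was 1.39 times the lowest in the median, and more than 2 times at 32. The coefficient of variation over 11 libraries was 10% in the median, against 14.9% at the other strong distal peaks. This variation includes the spread between population means that the rule limited, so the contrast follows at least in part from the selection.

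**Figure D3:**
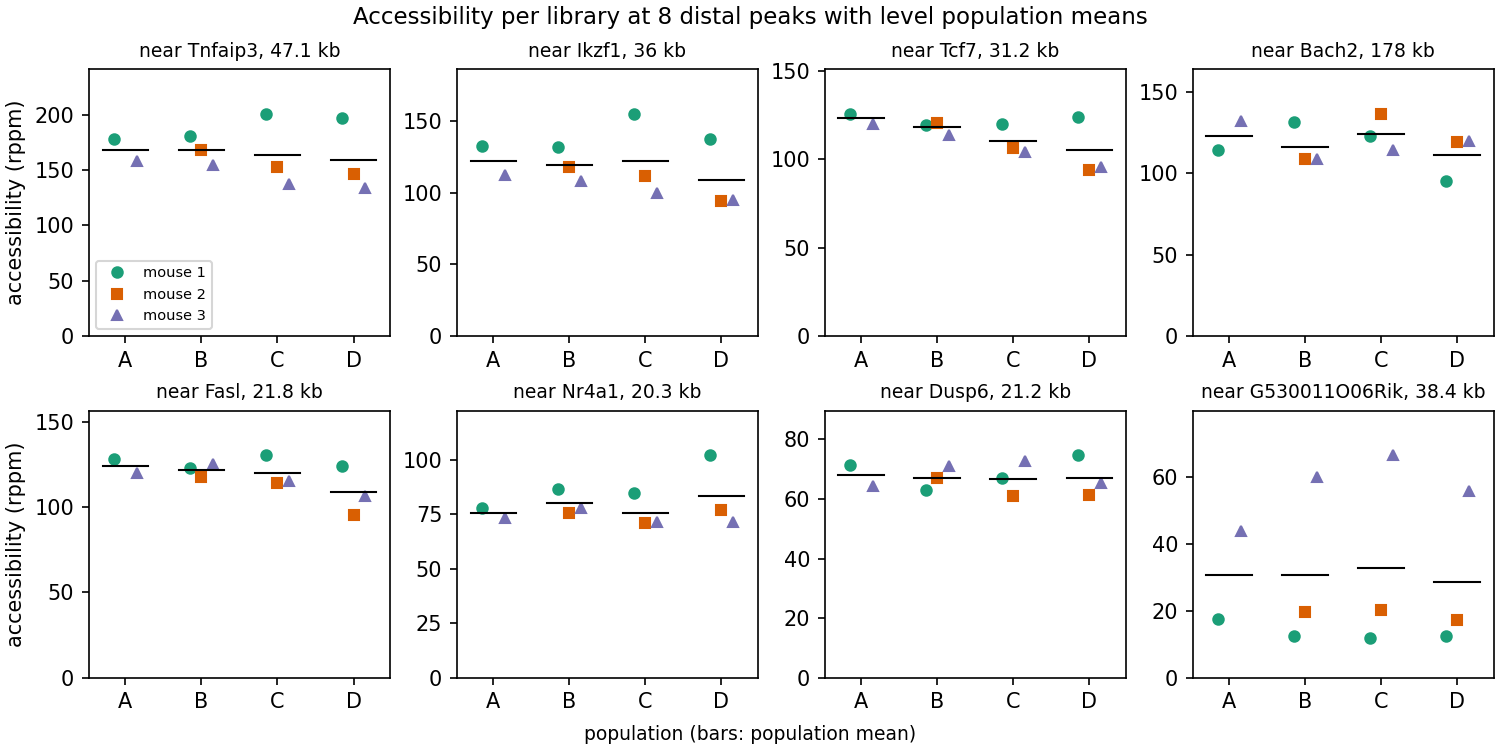
Signal in rppm (y axis, from 0) in each population (x axis) at 8 level distal peaks, with 1 symbol per mouse and a bar at the population mean; titles give the assigned gene and the distance. Mouse 1 lies highest in all populations near Tnfaip3 and Ikzf1, and mouse 3 near G530011O06Rik, where the means are nonetheless within 1.155-fold.

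CpG islands were more frequent among level distal peaks than among other distal peaks. They made up 153 (8.94%) of the level ones, 24 (2.98%) of the other strong distal peaks, 1.79% of all distal peaks and 12.1% of strong level promoter peaks. RefSeq start windows lying by at least 150 bases in the peak followed the same order, with 6.89% of level distal peaks, 22 of 774 (2.84%) other strong distal peaks and 482 of 26514 (1.82%) of all distal peaks, on the chromosomes searched (18 was not). All 115 level ones held the start itself, as did 21 of the 22 and 462 of the 482. Of 150 level peaks in CpG islands, 35 held such a start, so most did not. Peaks with a start were stronger, at a median of 50.8 rppm against 41.3 without. No test was run on these shares. Both sets of strong peaks are stronger than all distal peaks by the rule.

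Most level distal peaks lay elsewhere. Intergenic sites made up 36.3% and introns 33.9%, against 33.7% and 39% of the other strong distal peaks and 34.7% and 39.2% of all distal peaks. Repeats of the LTR, SINE and LINE classes were annotated at 94, 49 and 46 peaks (5.49%, 2.86% and 2.69%), against 6.87%, 5.75% and 3.18% of all distal peaks. Repeats of small RNA type were few: 13 of the 23 listed peaks annotated as snRNA and 8 of the 24 as tRNA were among the 1712, with medians of 62.6 and 54.7 rppm. Of the 8 tRNA peaks, 6 were called among mice.

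**Figure D4:**
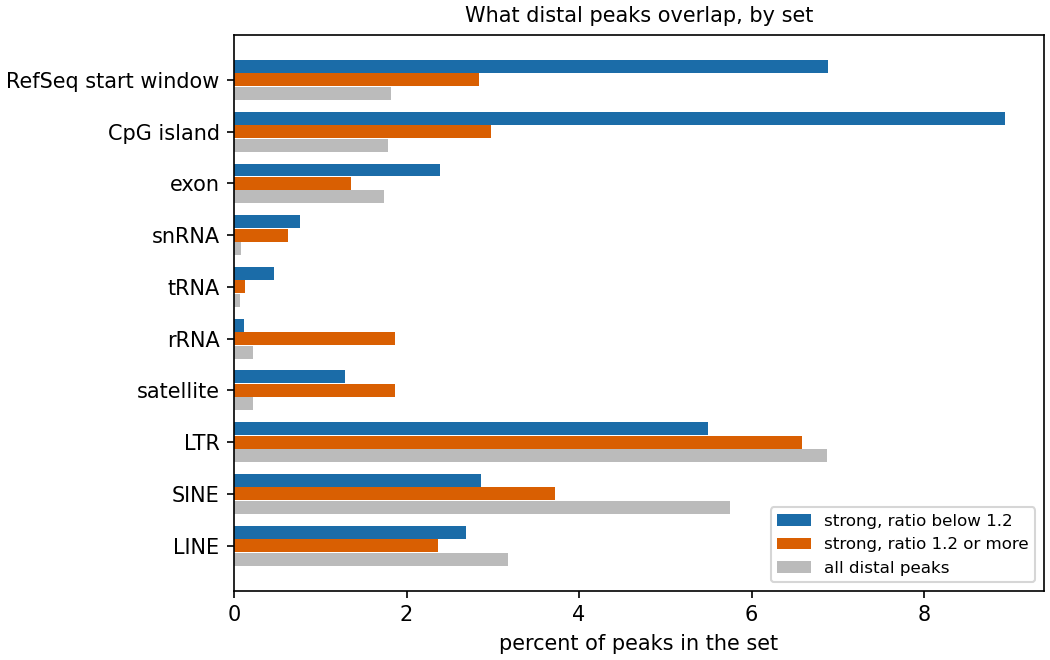
Bars give the percent of peaks (x axis, from 0) in each annotation class or covering at least 150 bases of a RefSeq start window, for level distal peaks (blue), other strong distal peaks (orange) and all distal peaks (grey). CpG islands reach 8.94%, 2.98% and 1.79%, and RefSeq start windows 6.89%, 2.84% and 1.82%, while LTR repeats reach 5.49%, 6.58% and 6.87%.

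Motif letters were counted in 147 RefSeq start windows with at least 150 bases in level distal peaks (126 of them whole), on both strands, beside 8281 windows in strong level promoter peaks and all 32851 windows of that length. The RUNX core TGTGGT was in 21.8% of the first, 11.2% of the second and 16.8% of the third. The AP-1 site TGANTCA was in 11.6%, 3.47% and 7.81%. The TCF and LEF site TCAAAG was in 14.3%, 10.7% and 16%, and the composite NFAT and AP-1 site in 1.36%, 1.15% and 1.45%. The ETS core CCGGAA was in 22.4%, 34.8% and 14.9%, the SP1 box GGGGCGG in 23.1%, 48.1% and 23.2%, and the NRF1 site GCGCNNGCGC in 6.12%, 17% and 6.23%. The CTCF core CCANNAGNNGGC was in 6 of the 147 (4.08%, 95% Wilson interval 1.88% to 8.62%), in 2.9% and in 2.43%. These are 8 of 17 motifs counted. With only matches inside the peak itself, the shares of the 147 were 20.4% for RUNX, 12.9% for TCF and LEF and 21.1% for ETS, and the same as above for the other 5. The windows in level distal peaks had a median of 53.3% G or C, those in promoter peaks 62.7% and all windows 52.7%, and the part of base composition in these shares was not tested. A match is a run of letters and not a bound site, and the windows cover only the 115 peaks with a start.

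By the nearest gene, the 1712 peaks fell to 1304 genes, of which 1045 had 1 and 78 had 3 or more. A nearest gene need not be the one a site regulates. Genes of T cell identity had 27 level distal peaks at 14 of 32 genes, among them 4 each at Tcf7 and Fli1 and 3 each at Bcl11b and Lef1. Of all 474 peaks assigned to this list, 41 (8.65%) were called higher in D and 17 (3.59%) lower by limma, near the 8.7% and 3.74% of all listed peaks. With the mouse as a block the counts were 58 and 45. A peak 31.2 kb upstream of Tcf7 (chr11:52313587-52314827), the gene of the naive and memory factor TCF-1, had 126 and 120.1 rppm in A, 119, 120.4 and 114 in B, 119.9, 106 and 104 in C, and 124, 94.1 and 95.7 in D. Its means fell within the rule only just, at a ratio of 1.175, and D of mouse 1 overlaps with A while the other D libraries lie below it. A peak in Ikzf1 (chr11:11725533-11726865), which encodes the lymphoid factor Ikaros, held 133 and 112 rppm in A, 132, 118 and 108 in B, 155, 111 and 99.7 in C, and 137, 94.2 and 95 in D. The order of mice was the same in A and B, and mice differed (limma adjusted p = 0.00423).

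Genes of naive homing and quiescence had 35 level distal peaks at 12 of 21 genes: 9 at Bach2, 6 at Foxp1, 4 each at Btg1 and Il6st, 3 at Cxcr4 and 2 each at Btg2 and S1pr1, with the rest at 5 further genes. Of 455 peaks of this list, 50 (11%) were called higher in D and 32 (7.03%) lower, beside 8.7% and 3.74% of all listed peaks. A peak 39.2 kb upstream of Il6st (chr13:112424173-112425599), which encodes the shared receptor chain gp130, ran from 89.4 to 109 rppm over the 11 libraries. A peak 14.3 kb from Btg2 (chr1:134092622-134094206), an antiproliferative gene, had 88.1 and 82.5 rppm in A and 109, 88.7 and 84.5 in D.

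Genes that T cell receptor signals induce held 14 level distal peaks at 9 of 19 genes, while 25 (17.4%) of their 144 peaks were called higher in D and 8 (5.56%) lower, beside 8.7% and 3.74% of all listed peaks. A CpG island 20.3 kb from Nr4a1 (chr15:101246000-101247073), the gene whose regulatory DNA drives the reporter of the sort, had 77.8 and 73.4 rppm in A, 86.4, 75.5 and 77.8 in B, 84.8, 71.1 and 71.4 in C, and 102, 76.8 and 71.3 in D. Where the reporter transgene carries this DNA, its reads would fall at the same place. A and D overlap there, while 4 of the 18 other listed peaks within 50 kb were called higher in D. A peak 18.4 kb from Fos (chr12:85454975-85455942), an AP-1 subunit, had 93.9 and 80.4 rppm in A and 132, 71.1 and 79.1 in D. Fos had 4 level distal peaks among its 17, and 0 of the 17 were called by limma between D and A, or 1 (lower) with the mouse as a block. Over all listed peaks the shares called were 12.4% and 21.2%. A peak 51 kb from Tagap (chr17:7874383-7875577), a T cell GTPase activator, had 88.2 and 84.7 rppm in A and 90.9, 71.4 and 73.3 in D. Of the other listed peaks within 50 kb, 3 of 12 were called higher in D near this Tagap peak and 0 of 18 near the Fos peak.

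Negative regulators of activation had 16 level distal peaks at 11 of 25 genes, while 62 (25.1%) of their 247 peaks were called higher in D and 3 (1.21%) lower, beside 8.7% and 3.74% of all listed peaks. With the mouse as a block the counts were 83 and 15. Beside the Tnfaip3 peak, the strongest were 2 in introns of Cblb, a ubiquitin ligase that restrains T cell receptor signals (chr16:52147017-52148093 and chr16:52128923-52130204). The first had 89.4 and 80.8 rppm in A and 94.7, 73.4 and 70.7 in D, and the second 61.8 and 51.2 in A and 62.4, 55.3 and 45.2 in D. A and D overlap at both. Of the other peaks within 50 kb, 3 of 8 were called higher in D near the second Cblb peak and 0 of 5 near the first. Near the Tnfaip3 peak 0 of 6 were called higher and 2 lower. A peak in an intron of Tox (chr4:6901326-6902854), a factor of T cell development and exhaustion, ran from 42.1 to 52.9 rppm, also with 3 of 8 other peaks within 50 kb called higher.

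Genes of genome architecture had 5 level distal peaks at 3 of 14 genes. Of their 78 peaks, 4 (5.13%) were called higher in D and 1 (1.28%) lower, beside 8.7% and 3.74% of all listed peaks. With the mouse as a block the counts were 6 and 3. The level ones were 2 at Nipbl, the cohesin loader, 2 at Yy1, a looping factor, and 1 at Pds5a, a cohesin regulator. The CpG island 125 kb from Nipbl (chr15:8568228-8570202) had 82.7 and 84.7 rppm in A and 95.5, 90.8 and 91.1 in D. A and D do not overlap there, at a log2 difference of 0.14 (SE 0.10) that was not called (limma adjusted p = 0.469). Genes of class I antigen presentation had 2, near Psmb9, an immunoproteasome subunit, and in Nlrc5, the transactivator of class I genes. The Psmb9 peak (chr17:34170696-34171797) ran from 41.7 to 55.7 rppm and the Nlrc5 peak (chr8:94453775-94454757) from 31.5 to 45.7. A and D do not overlap at the Psmb9 peak, with 50.25 and 50.9 rppm in A and 43.9, 41.7 and 49.6 in D. Its log2 difference was -0.17 (SE 0.11) and was not called (limma adjusted p = 0.419). A and D overlap at the Nlrc5 peak.

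After the satellite peaks assigned to Mir101c, Bach2 had the most level distal peaks. BACH2 is a repressor that holds T cells in the naive state and competes with AP-1 at its sites. Of the 54 peaks assigned to it, 9 were level, 6 were called higher in D and 5 lower, or 8 and 9 with the mouse as a block. Over all listed peaks, 8.7% were called higher and 3.74% lower without a block. All 9 level peaks lie inside the RefSeq gene model, upstream of the start that the authors' distances use. The strongest, a CpG island 178 kb upstream of that start (chr4:32238250-32240252), had 114 and 132 rppm in A, 131, 108 and 109 in B, 123, 136 and 114 in C, and 95.1, 119 and 120.0 in D. Its populations overlap, and no difference among mice was called (limma adjusted p = 0.759). The next, at 167 kb (chr4:32249648-32251496), had 98.5 and 89.5 rppm in A and 84.3, 107 and 107 in D.

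The order of level and called peaks along Bach2 was not tested, and its peaks that were neither are left out of this description. A peak called higher at 42.1 kb upstream (chr4:32374834-32375915), with means of 10.6 rppm in A and 18.4 in D, lay between level peaks at 52.9 and 29.1 kb. The 5 called lower without a block lay between level peaks at 154 and 81.5 kb upstream. At 126 kb upstream (chr4:32290833-32292063) a peak of similar strength fell from a mean of 81.8 rppm in A to 46.1 in D (limma adjusted p = 0.000101, a log2 difference of -0.81 with SE 0.10). A peak 11.6 kb upstream (chr4:32405282-32406415) rose from 7.67 to 27.4 rppm (adjusted p = 7.64e-05, log2 difference 1.71), and 1 at 15.8 kb (chr4:32401460-32401753) rose from 1.21 to 7.7. Between these, level peaks stood at 52.9 kb (chr4:32363307-32365688) with means of 67.2, 73.9, 70.3 and 64.2 rppm in A to D and at 29.1 kb (chr4:32387479-32389148) with 35.8, 38.6, 38.9 and 38.3. The 3 peaks called higher at 7.11, 8.03 and 9.13 kb past the start had means of 3.28, 7.42 and 3.4 rppm in A and 8.9, 17.6 and 9.45 in D.

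**Figure D5:**
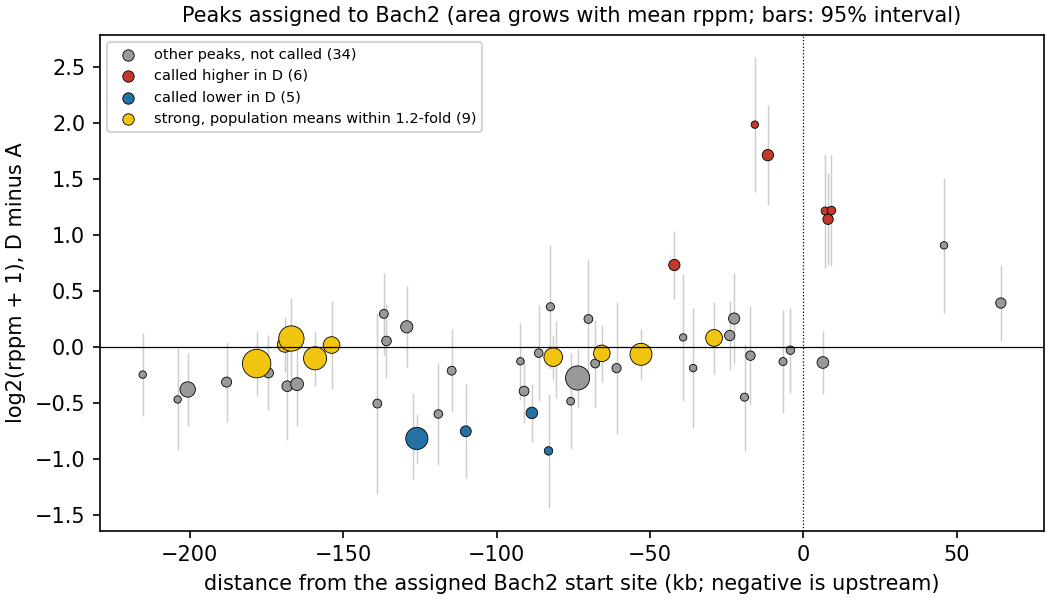
Each point is 1 of the 54 peaks assigned to Bach2, by distance from the assigned start (x axis, kb) and the D minus A difference in log2(rppm + 1) (y axis) with its 95% interval; the area grows with the mean signal. The 9 level distal peaks (yellow) lie between -178 and -29.1 kb near 0, the 6 peaks called higher in D (red) between -42.1 and 9.13 kb, and the 5 called lower (blue) between -127 and -83.1 kb.

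Foxp1, which encodes another factor of naive T cell quiescence, had 6 level distal peaks among 83, with 10 of the 83 called higher in D and 2 lower (13 and 3 with the mouse as a block), beside 8.7% and 3.74% of all listed peaks. Its level peak at 5.14 kb (chr6:99260915-99261830) had means of 63.5, 64.9, 66.2 and 75 rppm in A to D, and a peak at -74.6 kb (chr6:99340983-99341325) rose from 0.414 to 9.54 rppm (limma adjusted p = 1.11e-06, log2 difference 2.89). The 7 level distal peaks assigned to Fam105a (Otulinl) include 4 that lie inside Trio, a gene of a guanine nucleotide exchange factor. Of the 28 peaks of this assignment, 2 were called higher, beside 8.7% of all listed peaks. The 6 assigned to Gm5069 all lie inside Itpkb, whose kinase shapes T cell receptor signals, at means of 28.5 to 62.6 rppm. Prkch, a protein kinase C gene, also had 6, among 35 peaks with 3 called higher and 0 lower, beside 8.7% and 3.74% of all listed peaks.

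Peaks that changed lay near level distal peaks about as often as near all distal peaks. Another listed peak called between D and A lay within 50 kb of 919 (53.7%). It was higher in D near 664 (38.8%) and lower near 423 (24.7%), against 35.5% and 22.6% of all distal peaks. The share with any called neighbour was 61.5% for the other strong distal peaks, 68.7% for those with a ratio of 1.5 or more and 50.3% for all distal peaks. Level distal peaks had a median of 8 neighbours within that distance, the other strong ones 8 and all distal peaks 6. Of all neighbours within that distance, 11.1% were called near level distal peaks, 14.5% near the other strong ones, 22.5% near those with a ratio of 1.5 or more and 13.6% near all distal peaks, beside the 12.4% of all listed peaks. Neighbours may be level distal peaks themselves, 0 of which were called. Part of the differences between these sets is therefore set by the rule. Another level distal peak lay within 20 kb of 456, or of 435 of the 1690 outside satellites. No test was run on these shares, since neighbouring peaks share their surroundings.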

How the data were processed

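The authors' table, on mm10, lists peaks with position, annotation, nearest gene and a signal in each library. Deposited signals are RPM, named rppm per the file headers. Bowtie and MACS2 stand in the submitters' processing notes; versions, read filters, peak merging and the scaling total are not given in the sources used here. Values were whole multiples of 1 step (100% within 6e-04), from which whole reads and totals were recovered; 92.5% to 94.7% of each total fell in listed peaks. Reads carry no molecular identifiers.

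Log2(rppm + 1) was fitted with limma 3.58.1 (R 4.3.3), all 11 libraries, 1 mean per population, a variance trend, two-sided tests and Benjamini-Hochberg adjustment over 45508 peaks at 0.05 ("called"). The test among mice added the mouse. It was checked on simulated data. edgeR 4.0.16 and DESeq2 1.42.0 on recovered reads were alternatives, with other pseudocounts, scalings, limits of the rule and left-out libraries. Deviations of libraries from 1 mouse correlated at 0.183 to 0.556 (15 pairs), and the labels name the mouse, so the mouse was also fitted as a block. Windows and gene models are RefSeq's (GRCm38.p6), and 1710 of 1712 peaks matched by Entrez identifier.

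The members and lists were chosen with earlier results of these data known. Named peaks were the 10 strongest, the 10 most even, those nearest each limit, up to 4 per list, the 8 strongest at a RefSeq start, the 5 most different among mice, and the members of the 5 genes with the most, together with the called peaks of Bach2 and Foxp1. The start rule stands in for a planned CTCF motif rule over peak centres, which was not analysed here. One marker gene is not reported here.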

Additional observations from a re-analysis of the deposited data

Results flagged for a closer look

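Unplaced contigs, which the rule leaves out, carried signal of the same kind. Of 67 listed peaks there, 42 had a mean of at least 25 rppm in every population, and 28 of these had a ratio below 1.2. The highest had a mean of 432 rppm. These peaks have no place on a chromosome and enter no comparison above.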

How the results depend on the processing

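The number of level distal peaks followed the limits of the rule: it was 716 with a ratio below 1.1, 3056 and 830 with floors of 15 and 40 rppm, 954 beyond 20 kb, and 1051 without peaks called among mice, an alternative added after seeing the data. Other limits, median-of-ratios scaling (1754) and quantile normalization (1798) kept it within 1.5 times. Leaving out 1 library at a time gave 1396 to 1672, lowest without population D replicate 1. Called peaks between D and A numbered 9668 with the mouse as a replicate block and 3078 at a mean of at least 5 rppm. They ranged from 2930 (without population A replicate 3) to 6042 (without population D replicate 1) with 1 library left out, and were 3115 without population A replicate 1; the lone library of A is then assumed to vary like the other groups. For any difference the numbers were 7960 with the replicate block, 2209 at that minimum and 3204 to 4481. For a difference among mice DESeq2 called 5258 (534 level distal peaks) and edgeR 9378 (763), and leaving out 1 library gave 1190 to 10956, lowest without population C replicate 1; the cause was not tested. Of peaks chosen in 1 mouse, 40.7% were below 1.2 when mouse 3 chose and mouse 1 was read, and 69.7% with a ratio below 1.1. A called neighbour was found for 31.1% within 20 kb, 70.2% within 100 kb and 74.1% within 50 kb under the replicate block. The planned CTCF motif over peak centres and its alternatives were not run, since they need a genome. Depth limits the shallowest library most, where 25 rppm is 65 reads.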
